A study of Mus musculus with 12 samples.

Results

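A set of 10 genes that report on mitogen-activated protein kinase (MAPK) signalling are described here across 4 groups of mouse embryonic stem cells: the phosphatases Dusp4 and Dusp6, the pathway inhibitors Spry2, Spry4 and Spred1, and the transcription factors Etv4, Etv5, Egr1, Fos and Fosl1. The 10 genes were taken by name from 43346 gene IDs in the deposited table, with earlier results of these data known. All 10 passed the filter on low counts, as did 17148 genes in total. RNA was sequenced from 3 libraries per group. B6 cells are of the inbred strain C57BL/6J and D2 cells of the inbred strain DBA/2J. B6-13D2 is the congenic strain B6.D2-(rs30079041-rs51756099)/Bakr, which has a DBA/2J segment of chromosome 13 on the C57BL/6J background. D2-13B6 is the reciprocal congenic strain, D2.B6-(rs29224292-rs13469455)/Bakr in the sample labels, with a C57BL/6J segment on the DBA/2J background; the series text gives rs51756099 as the end of that segment. None of the 10 genes lies on chromosome 13 (0 of 10).

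Every group grew in the same medium, with 15% fetal bovine serum, LIF, 1 μM PD0325901, which inhibits the kinase MEK, and 3 μM CHIR99021, which inhibits the kinase GSK3. No group without the MEK inhibitor was analysed here, so the values compare lines in inhibited medium and give no measure of the inhibitor's effect. The labels describe the 3 libraries of a group in different ways: the titles call them technical replicates, and the protocol calls them independent cultures of one line. The p-values therefore measure only the spread between these libraries, which may be technical, and a strain cannot be told apart from its line. The labels name another line for B6 replicate 3 than for B6 replicates 1 and 2, and the D2 titles and cell line fields name different lines. Library totals ran from 22184196 to 36411799 expected counts.

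In the MAPK pathway, growth factors such as FGF4 act through receptor tyrosine kinases, RAS and RAF to activate MEK, which phosphorylates and activates ERK. Active ERK turns on immediate early genes such as Fos and Egr1 within minutes, and a second set of genes whose products dampen the pathway: DUSP phosphatases remove phosphate from ERK, and Sprouty and SPRED proteins act upstream at the level of the receptors, RAS and RAF. In mouse embryonic stem cells, FGF and ERK signalling promotes exit from the naive state, and a MEK inhibitor is added to culture medium to hold cells in that state. Expression of these genes is widely read as a gauge of ERK output.

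Most of the 10 genes were highest in D2 and lower in both congenic lines than in the strain that supplied their background. How many of all tested genes were highest in D2 was not counted, so the former is only a description. Levels are given as CPM, counts divided by the scaled library size and brought to a common total, and a gene is said to be called where edgeR's quasi-likelihood test gave an adjusted p under 0.05 over all 17148 genes. In D2 against B6, 8 of the 10 genes rose (29.8% of all tested genes did), 1 fell, Spry2 (30.3%), and Etv5 was not called. In B6-13D2 against B6, 9 fell (32.9% of all tested genes) and 1 rose, Etv4 (25.4%). In D2-13B6 against D2, 9 fell (29.7%) and 1 rose, Etv5 (27.6%). The median log2 fold changes of the 10 genes were 0.82, -0.76 and -1.10 in these comparisons, where the medians over all tested genes were 0.012, -0.035 and 0.000. Over either direction, 60.0%, 58.3% and 57.3% of all tested genes were called, so being called is itself common in these comparisons. The split by direction depends on the scaling: with RLE size factors in place of TMM, the genes called higher went from 49.6% to 56.7% of those called in D2 against B6 and from 43.5% to 52.0% in B6-13D2 against B6, and they were 48.2% and 48.4% in D2-13B6 against D2.

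**Figure D1:**
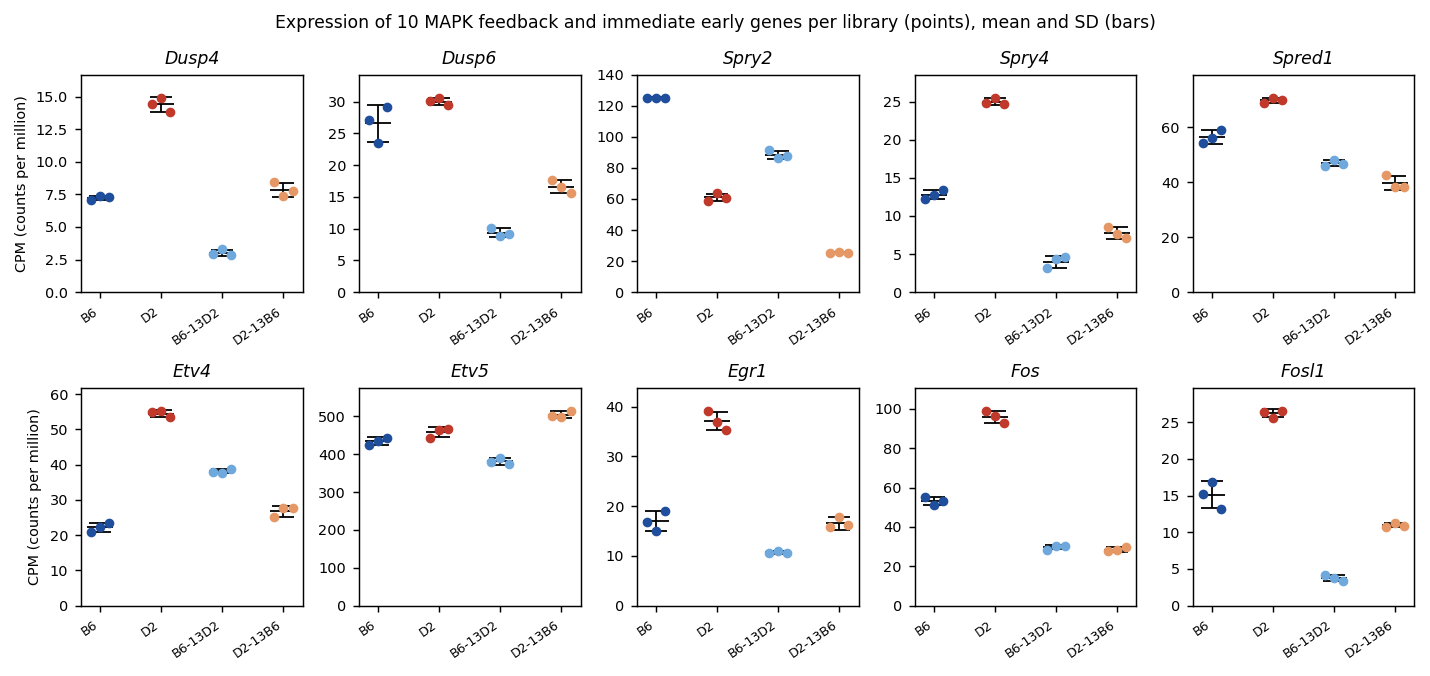
CPM of each gene in each of the 12 libraries (points, replicates 1 to 3 from left to right within a group), with the mean and SD of each group (bars, n = 3); each panel starts at 0 and has its own scale. D2 is the highest group for 8 genes, a share not counted over all tested genes. Spry2 is highest in B6, and Etv5 is highest in D2-13B6.

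Markers of another cell type moved with these groups, and their values belong beside every result that follows. The 10 fibroblast markers looked at (Col1a1, Col1a2, Col3a1, Thy1, Pdgfrb, Postn, Lum, Dcn, Acta2 and Twist1) had a summed level of 10525 to 11348 CPM in B6 and 15802 to 18760 in D2. In the congenic lines the sum was 3417 to 3501 CPM for B6-13D2 and 8574 to 8894 for D2-13B6. The order of the sum, D2, B6, D2-13B6, B6-13D2, is that of several of the 10 genes. Col1a1 and Col1a2 make up most of the sum; of the 10 markers, Col3a1, Postn, Lum and Dcn were higher in D2-13B6 than in B6, and Dcn had 2.94 CPM in D2-13B6 and 2.81 in D2. None of the 10 markers was at 0 in any library; Col1a1, a collagen chain, had 6428 CPM ± 348 (SD, n = 3) in B6 and 10484 ± 925 in D2, against 2093 ± 37.5 for B6-13D2 and 5227 ± 99.3 for D2-13B6. The growth protocol in the labels names no feeder layer. In D2 against B6 all 10 of these markers rose, in B6-13D2 against B6 all 10 fell, and in D2-13B6 against D2 9 fell, with median log2 fold changes of 0.72, -1.54 and -0.94. In bulk RNA, fewer cells of a type and less RNA per cell cannot be told apart. The part of fibroblast RNA in the results on the 10 genes was not tested.

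Markers of the labelled cell type were present in all libraries. Pou5f1, Sox2, Nanog, Klf4, Esrrb, Zfp42, Tfcp2l1 and Tdgf1 were expressed in every library, with a summed level of 4156 to 4337 CPM in B6 and 2892 to 2926 in D2, and of 4732 to 4876 for B6-13D2 and 3444 to 3456 for D2-13B6. This order of groups is not the reverse of the fibroblast order throughout, since B6 was above D2-13B6 in both. Primitive endoderm markers (8 genes) summed to 210 to 215 CPM in B6-13D2 and 604 to 691 in D2, with 408 to 437 in B6 and 443 to 450 in D2-13B6; most of it was Col4a1, which had 337 CPM in B6 and 551 in D2 and which mesenchymal cells also express. Markers of primed epiblast summed to 157 to 164 CPM in B6 and 205 to 208 in B6-13D2. In D2 they summed to 231 to 237 CPM and in D2-13B6 to 249 to 254. Most of this was Zic2 and Dnmt3b, a DNA methyltransferase, the latter at group means of 96.2 to 181. Fgf15 was also highest in D2-13B6, but other markers had other orders. Otx2 and Pou3f1 were highest in B6-13D2, at 3.20 and 6.61. Fgf5 had 0.142 in B6-13D2 and 0.517 in B6, and Zic2 had 52.0 in D2 and 56.4 in B6. Neural markers summed to 53.9 to 102 CPM over all libraries, and among them Olig2 had 24.6 in B6 and 39.2 in B6-13D2 but 0.0535 in D2 and 0.0756 in D2-13B6. Mesoderm markers summed to 12.4 to 18.0 CPM. The part of these cell types in the results was not tested. Gene by gene, Mesp1 was at 0 in 3 libraries, and Pax6 and Neurog2 in 1 library each.

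**Figure D2:**
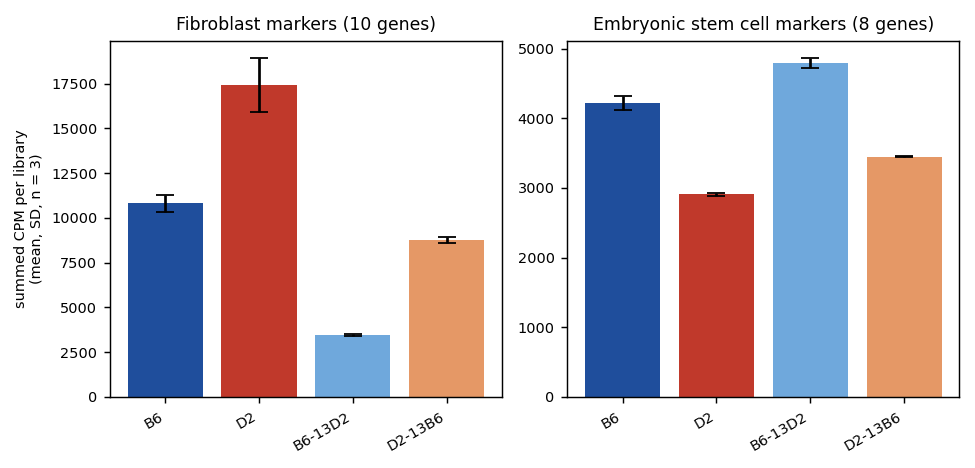
Summed CPM of 10 fibroblast markers (left) and 8 embryonic stem cell markers (right) per group; bars are means and error bars SD over 3 libraries, and both axes start at 0. The fibroblast sum differs 5.04-fold between D2 and B6-13D2, and the stem cell sum 1.65-fold between B6-13D2 and D2.

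The upstream sequence of a few members shows what kind of element was searched for in these promoters. ETS factors, the family of Etv4 and Etv5 and of the ERK substrate ELK1, bind DNA with a GGAA core, so the letters CGGAAG were searched on both strands from 250 bases before to 50 bases after each start in RefSeq's GRCm38.p6 promoter set. An entry was found for 5 genes, Dusp6, Spry2, Spred1, Etv5 and Fos, giving 6 promoters since Etv5 has a pair of starts. The letters were found in 3 of these 6 promoters, those of Dusp6, Spred1 and Fos, and in 16.9% of all 32851 promoters. The matched stretches of 64 bases, all upstream of the start, are shown 5′ to 3′ on the gene's strand with the match in capitals.
Fos (chr12:85473640-85473703, + strand): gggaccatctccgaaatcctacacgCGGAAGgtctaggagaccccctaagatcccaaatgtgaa
Dusp6 (chr10:99263142-99263205, + strand): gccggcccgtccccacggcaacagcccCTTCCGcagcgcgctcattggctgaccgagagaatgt
Spred1 (chr2:117121007-117121070, + strand): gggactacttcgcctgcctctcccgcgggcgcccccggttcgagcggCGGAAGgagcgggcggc
In Dusp6 the match lies on the opposite strand, so its reverse complement is capitalised. The match begins 225 bases before the start in Fos, 62 before it in Dusp6 and 17 before it in Spred1, and Spred1 has another on the opposite strand just after its start. These starts are RefSeq's; for Spred1 it lies 303 bases upstream of the GENCODE M21 start, while for Fos and Dusp6 they coincide. Other motifs were searched in the same way on both strands. The CArG box, bound by serum response factor, occurs in 1.63% of all promoters and the longer ETS letters CCGGAAGT, which contain the shorter ones, in 3.89%. The AP-1 letters TGANTCA occur in 7.81% of them. The cAMP response element, TGACGTCA, occurs in 1.79%. None of these was found in the 6 promoters, which says only that the letters are not in these windows. A match is a description of the letters and not a binding site.

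Of the phosphatases, Dusp4 encodes a nuclear enzyme that acts on ERK and related kinases, and it had one of the wider ranges. Dusp4 (chromosome 8, 34807297 to 34819894 in GENCODE M21 on GRCm38) had 7.07, 7.39 and 7.29 CPM in the B6 libraries, 14.4, 14.9 and 13.8 in D2, 2.94, 3.29 and 2.83 in B6-13D2, and 8.44, 7.39 and 7.76 in D2-13B6. D2 libraries were all above the rest and B6-13D2 libraries all below. The log2 fold change was 0.99 (SE 0.081, edgeR adjusted p 1.19e-08) in D2 against B6, -1.26 (SE 0.100, adjusted p 5.00e-09) in B6-13D2 against B6, and -0.87 (SE 0.077, adjusted p 2.49e-08) in D2-13B6 against D2. B6 and D2-13B6, its neighbours in the middle of the order, were not separated by the test (0.12, SE 0.085, adjusted p 0.245).

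Dusp6, the cytoplasmic phosphatase specific for ERK, was similar in both parental strains and lower in both congenic lines. Dusp6 (chromosome 10, 99263231 to 99267489) had 27.1, 23.5 and 29.2 CPM in B6, 30.1, 30.6 and 29.5 in D2, 10.1, 8.86 and 9.21 in B6-13D2, and 17.7, 16.5 and 15.6 in D2-13B6. No library of one group lay within the range of another, though B6 replicate 3, at 29.2, came close to the lowest D2 library, at 29.5. Dusp6 fell in B6-13D2 to 0.353 of the B6 level (SE 0.081 on the log2 scale, edgeR adjusted p 2.56e-11), and by 0.85 on the log2 scale in D2-13B6 against D2 (SE 0.071, adjusted p 1.28e-08). The difference between the parental strains was 0.18 (SE 0.071, adjusted p 0.0401), and the call was lost in several alternatives: without B6 replicate 2 it was 0.09 (adjusted p 0.258), and without B6 replicate 1, D2 replicate 1 or D2 replicate 2 the adjusted p was 0.0619, 0.0705 and 0.111. The call was also lost, by a narrower margin, without B6-13D2 replicate 3 (adjusted p 0.0510), without D2-13B6 replicate 2 and with only the libraries compared (0.0540).

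The Sprouty genes, whose products restrain signalling from receptor tyrosine kinases, went different ways between the parental strains. Spry2 (chromosome 14, 105891947 to 105896819) had 125 CPM in each of the 3 B6 libraries, 58.9, 63.5 and 60.5 in D2, 91.5, 86.5 and 87.6 in B6-13D2, and 25.4, 25.9 and 24.9 in D2-13B6. The groups did not overlap, and the pair of groups on the B6 background stood above the pair on the D2 background. Spry2 fell by 1.03 on the log2 scale in D2 against B6 (SE 0.038, edgeR adjusted p 2.32e-13), the one gene of the 10 to do so, while the fibroblast markers rose there. It fell by 0.50 in B6-13D2 against B6 (SE 0.037, adjusted p 1.92e-09) and by 1.26 in D2-13B6 against D2 (SE 0.042, adjusted p 1.19e-13). Against B6, D2-13B6 was 2.30 lower on the same scale, a log2 fold change of -2.30 (SE 0.041, adjusted p 2.04e-17), the widest difference of any of the 10 genes in that comparison.

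Spry4 (chromosome 18, 38586247 to 38601415) had 12.2, 12.7 and 13.4 CPM in B6, 24.8, 25.5 and 24.7 in D2, 3.12, 4.33 and 4.60 in B6-13D2, and 8.58, 7.64 and 7.08 in D2-13B6. The 4 groups did not overlap, and their order was that of the fibroblast sum. Its log2 fold change was 0.97 (SE 0.088, edgeR adjusted p 3.93e-08) in D2 against B6. It fell by nearly the same amount in both congenic lines, with -1.67 (SE 0.111, adjusted p 4.37e-10) in B6-13D2 against B6 and -1.68 (SE 0.089, adjusted p 3.30e-11) in D2-13B6 against D2. From D2 to B6-13D2 its mean CPM differed 6.22-fold, against 5.04-fold for the fibroblast sum. Single fibroblast markers differed there from 4.25-fold (Thy1) to 8.13-fold (Lum) in the edgeR fit, so Spry4 lay within their spread.

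Spred1, which recruits neurofibromin to inactivate RAS, had a range of 1.76-fold between its highest and lowest group means. Spred1 (chromosome 2, 117121374 to 117182279) had 54.1, 56.1 and 59.1 CPM in B6, 68.8, 70.7 and 69.9 in D2, 46.0, 48.2 and 46.6 in B6-13D2, and 42.7, 38.2 and 38.3 in D2-13B6. The groups did not overlap, and D2-13B6, not B6-13D2, was lowest. Its log2 fold changes were 0.31 (SE 0.047, edgeR adjusted p 2.21e-05) in D2 against B6, -0.27 (SE 0.049, adjusted p 1.39e-04) in B6-13D2 against B6 and -0.81 (SE 0.047, adjusted p 1.11e-10) in D2-13B6 against D2. The last of these was larger in size than that of 84.3% of all tested genes. In D2 against B6 that share was 47.8%, and in B6-13D2 against B6 it was 42.8%.

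**Figure D3:**
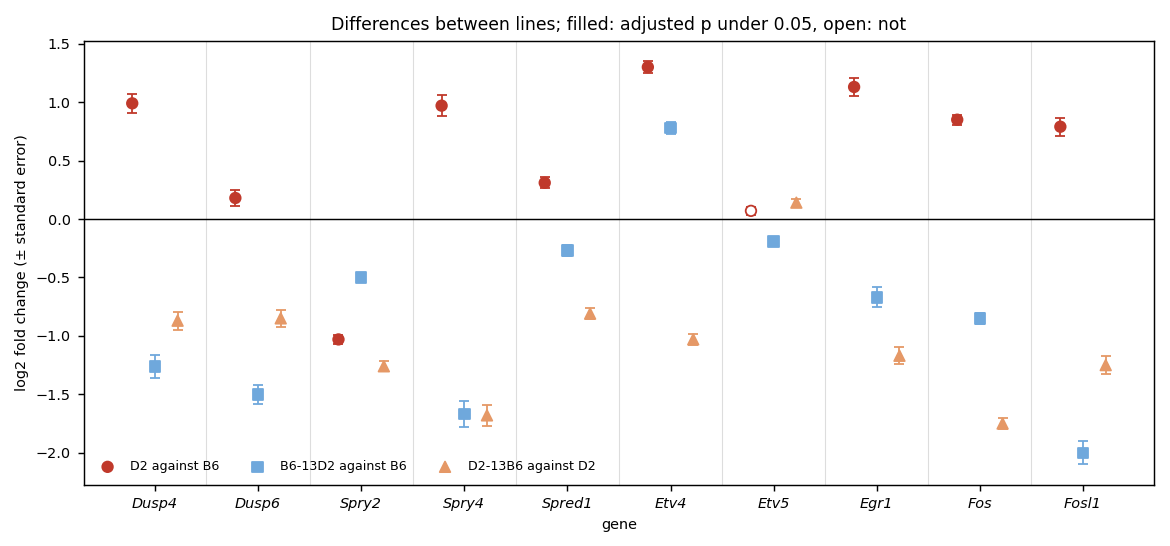
Log2 fold change (vertical axis, ± standard error from edgeR) of each gene in D2 against B6, B6-13D2 against B6 and D2-13B6 against D2; filled symbols are called and open ones are not. Both congenic comparisons lie below 0 for 8 genes, while Etv4 and Etv5 have opposite signs in them.

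The ETS factors Etv4 and Etv5, of the PEA3 subfamily and both known targets of FGF signalling, differed from the other 8 genes in having opposite signs in the congenic comparisons. Etv4 (chromosome 11, 101769742 to 101785371) had 20.9, 22.3 and 23.3 CPM in B6, 55.0, 55.2 and 53.4 in D2, 38.0, 37.5 and 38.7 in B6-13D2, and 25.0, 27.7 and 27.8 in D2-13B6. The groups did not overlap, and both groups with the D2 segment stood above both groups with the B6 segment. Etv4 rose by 1.30 on the log2 scale in D2 against B6 (SE 0.053, edgeR adjusted p 1.03e-12) and by 0.78 in B6-13D2 against B6 (SE 0.054, adjusted p 8.80e-10), where the fibroblast markers fell. It fell by 1.03 in D2-13B6 against D2 (SE 0.050, adjusted p 1.04e-11). Genes of chromosome 11 as a whole (1386 tested) had a median log2 fold change of 0.39 in D2-13B6 against D2, against -0.03 for the other autosomes, so Etv4 fell there on a chromosome whose genes were shifted upward.

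Etv5 was the most abundant of the 10 genes per length of transcript and the least variable. Etv5 (chromosome 16, 22381309 to 22439719) had 424, 436 and 444 CPM in B6, 442, 463 and 467 in D2, 379, 391 and 373 in B6-13D2, and 502, 499 and 514 in D2-13B6. B6 and D2 libraries overlapped, and the congenic groups stood apart from them on opposite sides. On the log2 scale B6-13D2 was lower than B6, at -0.19 (SE 0.034, adjusted p 1.01e-04 by edgeR), and D2-13B6 was higher than D2, at 0.14 (SE 0.033, adjusted p 0.00141). In D2 against B6 it was 0.07 (SE 0.034, adjusted p 0.0671) and was called in several alternatives, with 0.13 (adjusted p 0.00302) under RLE size factors, 0.12 (3.01e-04) with DESeq2, 0.12 (0.00214) with a mean CPM of at least 1, 0.09 (0.0487) without B6 replicate 3 and 0.10 (0.0268) without D2 replicate 1.

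Etv4 and Etv5 were the 2 genes of the 10 that followed the segment allele, meaning that they were called in both congenic comparisons and moved with the allele on both backgrounds (7.33% of all tested genes did). They did so in opposite directions: Etv4 was higher and Etv5 lower with the D2 segment. The Etv5 changes were small, larger in size than those of 32.8% of all tested genes on the B6 background and 27.3% on the D2 background. For Etv4 these shares were 78.1% and 90.7%. The other 8 were called lower in both congenic lines than in their background strain, where 19.8% of all tested genes were, and none was higher in both (0 of 10, against 12.4%). These comparisons share no library.

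**Figure D4:**
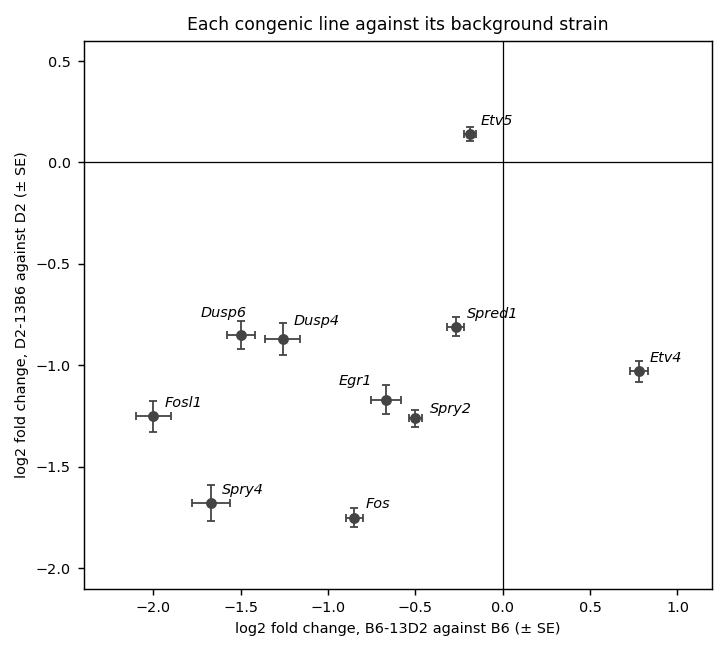
Log2 fold change of B6-13D2 against B6 (horizontal axis) and of D2-13B6 against D2 (vertical axis), one point per gene with standard errors from edgeR as bars. The lower left quadrant holds 8 genes, from Spred1 at -0.27 and -0.81 to Fosl1 at -2.00 and -1.25; Etv4 lies at 0.78 and -1.03 and Etv5 at -0.19 and 0.14.

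Of the immediate early genes, Egr1 encodes a zinc finger transcription factor induced by growth factors. Egr1 (chromosome 18, 34859823 to 34864984) had 16.9, 14.9 and 19.1 CPM in B6, 39.1, 37.0 and 35.4 in D2, 10.5, 10.9 and 10.5 in B6-13D2, and 15.7, 17.9 and 16.1 in D2-13B6. D2 libraries were all highest and B6-13D2 libraries all lowest, while B6 and D2-13B6 overlapped. Its log2 fold changes were 1.13 (SE 0.075, edgeR adjusted p 7.60e-10) in D2 against B6, -0.67 (SE 0.086, adjusted p 2.62e-06) in B6-13D2 against B6 and -1.17 (SE 0.072, adjusted p 2.32e-10) in D2-13B6 against D2. D2-13B6 and B6 were not separated (-0.04, SE 0.079, adjusted p 0.726).

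Fos, a subunit of the AP-1 transcription factor, was not separated by the test between the congenic lines, while the parental strains differed. Fos (chromosome 12, 85473890 to 85477273) had 55.3, 51.2 and 53.3 CPM in B6, 98.9, 96.5 and 92.8 in D2, 28.4, 30.2 and 30.1 in B6-13D2, and 27.5, 28.1 and 29.9 in D2-13B6. The congenic groups overlapped, and both stood below B6 and D2. Their difference was -0.05 on the log2 scale (SE 0.049, edgeR adjusted p 0.344). The log2 fold change was 0.85 (SE 0.044, adjusted p 2.59e-11) in D2 against B6, -0.85 (SE 0.048, adjusted p 4.85e-11) in B6-13D2 against B6 and -1.75 (SE 0.045, adjusted p 1.20e-14) in D2-13B6 against D2. In the last comparison the median of the fibroblast markers was -0.94, and 97.7% of all tested genes had a smaller absolute log2 fold change than Fos.

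Fosl1, which encodes the AP-1 subunit FRA1 and is strongly expressed in mesenchymal cells, had the widest range of the 10 genes, 6.99-fold between its highest and lowest group means. Fosl1 (chromosome 19, 5447547 to 5455946) had 15.2, 16.8 and 13.2 CPM in B6, 26.4, 25.6 and 26.5 in D2, 4.15, 3.72 and 3.36 in B6-13D2, and 10.7, 11.3 and 10.9 in D2-13B6. The 4 groups did not overlap, and their order was that of the fibroblast sum. Its log2 fold changes were 0.79 (SE 0.076, edgeR adjusted p 8.29e-08) in D2 against B6, -2.00 (SE 0.099, adjusted p 7.04e-12) in B6-13D2 against B6 and -1.25 (SE 0.076, adjusted p 1.74e-10) in D2-13B6 against D2. Exons of Fosl1 overlap exons of Ccdc85b on the other strand, and whether counting used strand is not given in the sources used here. Ccdc85b had 10.4 CPM ± 0.349 (SD, n = 3) in B6 and 14.4 ± 2.03 in D2, and 8.78 ± 0.729 for B6-13D2 and 13.5 ± 1.00 for D2-13B6, a narrower range than Fosl1. The Fosl1 values are therefore uncertain, and the part of Ccdc85b reads in them was not tested.

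Levels between genes were compared per kilobase of annotated exon. On the scale of mean CPM per kilobase, Etv5 was highest in every group, at 106, 112, 92.9 and 123 in B6, D2, B6-13D2 and D2-13B6. Spry2 followed at 59.9 in B6 and 42.4 in B6-13D2, but in D2 Fos, at 40.8, stood above Spry2, at 29.2. In D2-13B6 Spry2 and Fos had nearly equal levels, 12.2 ± 0.231 and 12.1 ± 0.513 (SD, n = 3). Dusp4, at 1.10 to 5.24 over the 4 groups, and Spry4, at 0.845 to 5.25, were the lowest. Annotated exon length includes every isoform, so these levels are approximate.

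Direct comparison of lines with the same segment left most of the 10 genes different between backgrounds. In B6-13D2 against D2, which share the D2 segment, 9 of the 10 genes were called lower (38.0% of all tested genes) and Spry2 was called higher (36.7%; 74.6% were called in either direction), with log2 fold changes from -2.80 for Fosl1 and -2.64 for Spry4 to 0.53 for Spry2. In D2-13B6 against B6, which share the B6 segment, 6 were called lower (34.6%), Etv4 and Etv5 were called higher (24.5%; 59.0% in either direction), and Dusp4 and Egr1 were not called. Here too the background split moved with the scaling, from 41.5% of called genes higher to 49.3% with RLE. The Etv4 value of 0.27 (SE 0.055) was close to the median of all chromosome 11 genes in that comparison, 0.29, where the other autosomes had -0.09. The fibroblast median was -2.31 in the former and -0.27 in the latter, where 4 of its markers rose and 6 fell. Between the congenic lines, D2-13B6 against B6-13D2, 6 genes were called higher (38.4%), namely Dusp4, Dusp6, Spry4, Etv5, Egr1 and Fosl1, and Spry2, Spred1 and Etv4 were called lower (31.8%; 70.2% in either direction). The fibroblast median in that comparison was 1.36, with all 10 of its markers higher in D2-13B6.

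The effect of the segment was also compared between backgrounds, as the difference of both congenic lines from both parental strains, which the design makes the same quantity. It was below 0 and called for 9 of the 10 genes (33.4% of all tested genes were called lower, 31.1% higher and 64.5% in either direction), from -0.25 for Etv4 (-0.18 and not called with DESeq2, adjusted p 0.0968) to -3.35 for Spry4, and it was -0.05 and not called for Etv5 (SE 0.047, edgeR adjusted p 0.397). The median was -1.98 for the 10 genes and -2.49 for the fibroblast markers, all 10 of which were called lower. The names of the congenic columns carry a prefix that the parental columns lack; if it marks a batch, that batch holds whole groups and cannot be told apart from the lines.

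Other genes of the pathway were read from 3 lists. The first holds 23 genes of the cascade itself, from ligand to kinases: 5 rose and 6 fell in D2 against B6, 6 rose and 10 fell in B6-13D2 against B6, and 5 rose and 9 fell in D2-13B6 against D2, with medians of 0.02, -0.07 and 0.02. Its 11, 16 and 14 genes called of 23 stand beside 60.0%, 58.3% and 57.3% of all tested genes, so these counts are near the background. The 3 with the widest range of group means were Fgf4, Fgfr2 and Rps6ka1. Fgf4, the main FGF ligand of these cells, had 254 CPM ± 7.26 (SD, n = 3) in B6 and 276 ± 7.31 in B6-13D2, against 93.2 ± 2.86 in D2 and 154 ± 3.28 in D2-13B6, so that it was lowest where most of the 10 genes were highest. Its log2 fold change was -1.44 (SE 0.037, edgeR adjusted p 1.94e-15) in D2 against B6 and 0.72 (SE 0.037, adjusted p 2.21e-11) in D2-13B6 against D2. Fgfr2, an FGF receptor, fell by 1.18 (SE 0.097) from B6 to B6-13D2 and by 0.99 (SE 0.089) from D2 to D2-13B6, both called. Rps6ka1, a kinase activated by ERK, rose by 0.32 (SE 0.034) and 0.40 (SE 0.035) in the same comparisons.

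The second list holds other inhibitors and dampers of ERK, 17 of 18 of which were matched and tested, since Spry3 was not matched. In D2 against B6, 10 rose and 2 fell (29.8% and 30.3% of all tested genes did). In B6-13D2 against B6, 1 rose and 12 fell (25.4% and 32.9%), with a median of -0.49. In D2-13B6 against D2 the list split, with 6 higher and 8 lower (27.6% and 29.7%) and a median of -0.11. The 3 with the widest range were Dusp10, Dusp5 and Spred3. Dusp5, a nuclear ERK phosphatase, had 17.4 CPM ± 0.300 (SD, n = 3) in B6 and 24.1 ± 0.918 in D2, and 10.3 ± 0.0731 for B6-13D2 and 10.9 ± 1.33 for D2-13B6; as for Fos, the congenic lines were not separated (0.09, SE 0.078, edgeR adjusted p 0.295). Dusp10, which acts mainly on p38 and JNK kinases, fell by 1.21 (SE 0.116) in B6-13D2 against B6 and by 0.47 (SE 0.101) in D2-13B6 against D2, and Spred3 by 1.02 (SE 0.077) and 0.47 (SE 0.069), all called.

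The third list, other immediate early and growth response genes, moved most uniformly, and all 23 of its genes were tested. In D2 against B6, 20 rose and 1 fell (median 0.51), where 29.8% and 30.3% of all tested genes did. In B6-13D2 against B6, 1 rose and 19 fell (median -0.93), beside 25.4% and 32.9%. In D2-13B6 against D2, 22 fell and none rose, beside 29.7% and 27.6% (median -0.92; the remaining gene, Egr3, was not called). Fosb, an AP-1 subunit, had 48.9 CPM ± 2.15 (SD, n = 3) in B6 and 110.4 ± 2.61 in D2, against 21.0 ± 1.02 for B6-13D2 and 31.4 ± 1.21 for D2-13B6, and fell by 1.22 (SE 0.051) and 1.81 (SE 0.045) on the log2 scale in the congenic comparisons, both called. Myc, a growth regulator, had 42.5 CPM ± 1.89 in B6 and 58.7 ± 1.26 in D2, against 12.4 ± 1.00 for B6-13D2 and 29.8 ± 0.332 for D2-13B6, and fell by 1.77 (SE 0.058) and 0.98 (SE 0.049). Egr3 had at most 17 counts in any library and 0 to 3 in each B6-13D2 library, so its fitted values rest on few counts. The fibroblast medians of -1.54 and -0.94 stand beside these falls, and the part of fibroblast RNA in them was not tested.

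**Figure D5:**
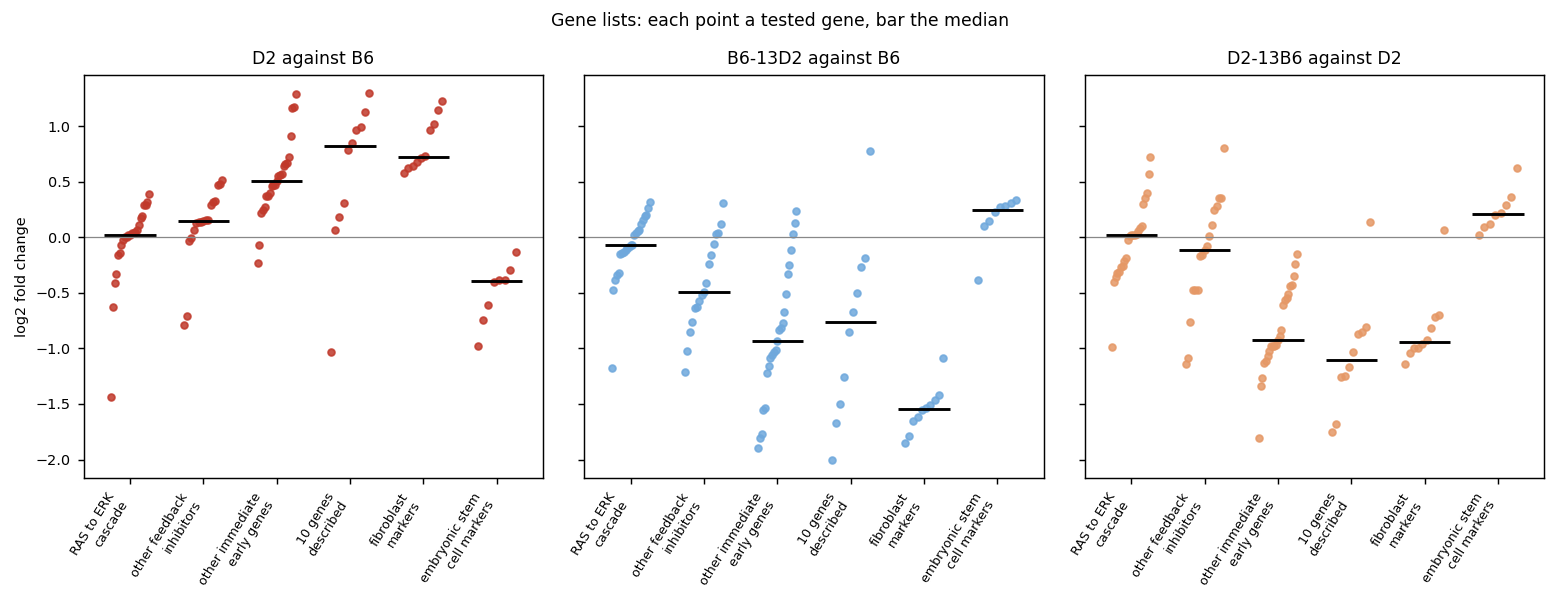
Log2 fold change (vertical axis) of every tested gene of 6 lists in 3 comparisons; each point is a gene, sorted within its list, and the bar is the list's median. The immediate early list, the 10 genes described and the fibroblast markers lie mainly above 0 in D2 against B6 and below 0 in the congenic comparisons, while the cascade list has medians from -0.07 to 0.02.

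Among themselves the 10 genes split by pattern over the 12 libraries, which form 4 groups, so the coefficients describe group patterns and carry no p. Fosl1, Dusp4, Dusp6, Spry4 and Egr1 had Pearson r of log2 CPM from 0.84 (Egr1 with Dusp6) to 0.97 (Fosl1 with Dusp4). Spry2 had r of -0.11 with Fosl1 and -0.29 with Dusp4, and Etv4 had 0.16 and 0.26. For each gene, a rule named the 2 candidates with the highest r. The candidates were the 11407 tested genes outside the 10 whose log2 CPM averaged 2 or more, so no member could be named. Those most like Fosl1 were Pappa (0.999) and Pdlim5 (0.998), and those most like Dusp4 were Slit3 (0.997) and Cyth3 (0.997). Those most like Spry4 were Tec (0.996) and Fstl3 (0.992). Dusp6 had Zbtb33 (0.995) and Rusc2 (0.992), Egr1 had Fzd7 (0.986) and BC004004 (0.985), and Fos had Hsd17b12 (0.983) and Snx9 (0.982). Spry2 had Mras (0.992) and Dusp11 (0.991), Spred1 had Por (0.990) and Glipr2 (0.982), Etv4 had Syn1 (0.971) and E2f8 (0.964), and Etv5 had Eif2s3y (0.984) and Ssh2 (0.982). The number of candidates with r of at least 0.9 was 1912 for Fosl1 and 1886 for Dusp4, but 14 for Etv4. The Etv4 pattern was thus shared by few of these genes and the Fosl1 pattern by many.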

How the data were processed

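RNA-seq libraries (150 bp paired-end reads, per the labels) were analysed as the deposited table of expected counts, estimated reads per Ensembl gene that the authors obtained with EMASE per the file's title. The submitters' processing notes list Bowtie 1.0.0, edgeR 3.34.1 and mm10, with no role given. Annotation release, strand setting and filters are not given in the sources used here. Counts of the 10 genes were whole in all 12 libraries. Groups and replicate numbers came from the titles; 0 columns were unmapped. Symbols and positions came from GENCODE M21 (GRCm38); 884 of 43346 IDs, with 0.361% of reads, were not matched.

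Rounded counts went through edgeR 4.0.16 under R 4.3.3, with filterByExpr (minimum count 10), TMM, a quasi-likelihood fit of 4 group means to all 12 libraries, and Benjamini-Hochberg adjustment over 17148 genes within each of 7 contrasts. SE is the absolute log2 fold change over the square root of F. The fit was also run on simulated counts in which 200 genes were changed in D2 and all others left alike between groups. In the real data 57.3% to 74.6% of tested genes were called, so the simulation gives no error rate for such widespread change. On counts simulated for D2 against B6 with each gene's own dispersion (16806 genes tested), 59 of 61 genes changed 4-fold, 52 of 67 changed 2-fold and 39 of 66 changed 1.5-fold were recovered, with 4 false calls. A first version, with one mean dispersion for all genes (16795 tested), recovered 60 of 61, 56 of 67 and 20 of 64, with 6 false calls, and missed the recovery first required; the simulation and that requirement were then changed, not the fit. The alternatives tried were a block for the replicate number, DESeq2 1.42.0, fits without each library or on the compared groups alone, scaling by RLE, and filtering either not at all or on a mean CPM of 1. The members and lists were chosen with earlier results of these data known. All 10 genes are named; from each of the 3 pathway lists the 3 genes with the widest range of group means are named.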

Additional observations from a re-analysis of the deposited data

Results flagged for a closer look

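For 9 of the 10 genes the segment effect was not the same on both backgrounds (edgeR interaction contrast, adjusted p under 0.05), where 64.5% of all tested genes were called in either direction. The contrast is also the sum of the congenic lines minus the sum of the parental strains, so it holds anything the congenic libraries share. On the log2 scale it was -2.13 for Dusp4, -2.36 for Dusp6, -1.76 for Spry2, -3.35 for Spry4, -1.08 for Spred1, -0.25 for Etv4, -1.84 for Egr1, -2.60 for Fos and -3.26 for Fosl1. Spry4 and Fosl1 thus had the widest differences, and Etv4 the narrowest of those called; DESeq2 did not call Etv4 (-0.18, adjusted p 0.0968).

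Of the whole pathway lists it was called for 16 of 23 genes of the cascade (8 higher and 8 lower), which is near the share of all tested genes, 64.5%. It was called for 14 of 17 other dampers (4 higher and 10 lower) and 21 of 23 other immediate early genes (0 higher and 21 lower), where 31.1% of all tested genes were called higher and 33.4% lower. It was called for the 9 of these that are named, which were picked for a wide range of group means, so that count supports nothing. Fgf4 (0.84) and Rps6ka1 (0.72) were higher in the congenic lines relative to the parental strains. Fgfr2 (-2.17), Dusp10 (-1.68), Dusp5 (-1.90), Spred3 (-1.49), Fosb (-3.03) and Myc (-2.75) were lower, as was Egr3 (-2.97), whose fitted value rests on few counts and on the prior count. The fibroblast markers had a median of -2.49 in this contrast, and their part in these values was not tested.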

How the results depend on the processing

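Under every alternative run, including each library left out, 8 to 10 of the 10 genes were called in D2 against B6. The share of all tested genes called there ran from 37.7% with no filter to 66.8% with a mean CPM of at least 1. For the difference between backgrounds 8 to 9 were called, beside 41.1% (no filter) to 71.9% (mean CPM of at least 1) of all tested genes. DESeq2 did not call Etv4 in that contrast (-0.18, adjusted p 0.0968). In the other 5 comparisons the counts of 10, 10, 10, 8 and 9 did not move, while the share of all tested genes called did. From no filter to a mean CPM of at least 1, it ran from 36.7% to 67.4% in B6-13D2 against B6. In B6-13D2 against D2 it ran from 48.3% to 80.2%, and in D2-13B6 against B6 from 37.1% to 65.4%. In D2-13B6 against B6-13D2 it ran from 45.1% to 76.7%. In D2-13B6 against D2, 10073 of 27967 genes were called with no filter and 9182 of 14136 with that minimum. With the replicate number as a block the counts were 9, 10, 10, 10, 8, 9 and 9, the same as without it. Beside them, 59.3%, 57.8%, 56.4%, 74.1%, 58.5%, 69.5% and 63.9% of all tested genes were called. Same-numbered libraries had deviations with r from -0.125 to 0.0683 (mean -0.0108, 18 pairs). Of the 12 libraries, 4 correlated best with their own number, so the numbers show no pairing.

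Of 410 single-gene values under other settings 400 kept their direction and side of the threshold, and of 840 with a library left out 830 did. The values that changed sign were small and not called: Egr1 in D2-13B6 against B6 was 0.02 with DESeq2 and with RLE size factors, 0.03 when only these groups were fitted, and from -0.12 to 0.06 with a library left out (0.06 without B6 replicate 3, 0.01 without D2-13B6 replicate 1), and Etv5 in the difference between backgrounds was 0.02 under the same pair of settings, DESeq2 and RLE. Against TMM, RLE size factors moved the median of all genes by at most 0.065 on the log2 scale.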
